A study of Rattus norvegicus with 22 samples.

Results

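The interleukin-1 (IL-1) system of rat liver was described through 6 genes: the antagonist Il1rn, the ligands Il1a and Il1b, the signalling receptor Il1r1, its accessory protein Il1rap and the decoy receptor Il1r2. They were taken by gene symbol, and each was read by 1 probe set, so that 6 of the 18166 genes with a single symbol are the subject here. The data are 22 Affymetrix arrays, 1 for each rat, hybridised with total RNA from the median lobe of the liver. All rats were females of the outbred stock Crl:CD(SD), labelled as 12 weeks old. Of these, 10 had been given 50 mg/kg GSK932121A, an inhibitor of mitochondrial complex III, once by the intraperitoneal route, and their labels give 5 hours of treatment. The other 12 had received the vehicle, which holds the same excipients (mannitol, hydroxypropylmethylcellulose and sodium dodecyl sulphate) in water without the compound, and for which the labels give no time. The submitters dosed 12 rats with GSK932121A and left out 2 of them because little compound was found in plasma.

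IL-1 alpha and IL-1 beta are inflammatory cytokines that bind the same receptor, IL1R1, which then recruits the accessory protein IL1RAP and signals through MyD88 and IRAK kinases to NF-kB and the stress-activated kinases. The receptor antagonist IL-1ra, product of Il1rn, occupies IL1R1 without recruiting the accessory protein, and the type 2 receptor, product of Il1r2, binds ligand but has no signalling domain. In liver, macrophages are a main source of IL-1 beta, while hepatocytes carry IL1R1 and make IL-1ra and acute-phase proteins when IL-1 or IL-6 reaches them.

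Values are log2 RMA expression, so a step of 1 is a doubling. A probe set's level cannot be set against that of another, and only differences between groups are compared between genes. Array medians over all probe sets lay between 4.73 and 4.85, and any pair of arrays correlated at 0.971 to 0.990 across genes. The highest value of the scale was 13.8. The hepatocyte marker Alb read 13.38 ± 0.04 in GSK932121A livers and 13.41 ± 0.03 in vehicle livers (SD, with n = 10, then n = 12). The labels name no batch, and each array stands for 1 animal.

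The first question was which of the 6 genes differed between GSK932121A and vehicle. The antagonist and the signalling receptor rose, whereas the ligands, the accessory protein and the decoy receptor did not pass the test. In limma, with p-values adjusted by Benjamini-Hochberg over all genes, 2 of the 6 members rose and none fell at an adjusted p under 0.05. Among all genes 5.31% rose, 7.05% fell and 12.4% did either. At an unadjusted p under 0.05 the count was 5 of 6, all but Il1rap, against 24% of all genes. The median difference of the members was 0.37, that of all genes -0.01 (log2, GSK932121A minus vehicle).

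Il1rn had a lowest, median and highest log2 value of 8.12, 10.43 and 11.25 in GSK932121A livers, against 6.86, 7.78 and 8.30 in vehicle livers. In 9 of the 10 treated livers it lay above every vehicle liver. The exception was GSK932121A replicate 24, which fell inside the vehicle range. The group means were 10.15 ± 0.94 in GSK932121A livers and 7.72 ± 0.47 in vehicle livers (SD; n = 10, then n = 12). The difference was 2.44 ± 0.27 (SE) on the log2 scale, a 5.42-fold rise (limma, adjusted p = 1.01e-06), with a 95% interval of 1.87 to 3.00. With surrogate variables for hidden factors, the difference was 1.51 and still passed (adjusted p = 0.00229).

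Il1r1, the receptor that both ligands and the antagonist bind, rose by less. It had a lowest, median and highest log2 value of 9.60, 10.56 and 10.71 in GSK932121A livers, against 8.62, 9.08 and 9.85 in vehicle livers. Again 9 of 10 treated livers lay above every vehicle liver, and again replicate 24 was the one that did not. Means were 10.42 ± 0.33 in GSK932121A livers and 9.24 ± 0.41 in vehicle livers (SD; n = 10, then n = 12). The difference was 1.18 ± 0.15 (SE), a 2.27-fold rise (limma, adjusted p = 4.41e-06), with a 95% interval of 0.88 to 1.49. Among all genes, 1.2% had at least 9 treated livers above the highest vehicle liver and 0.457% had all 10, which no member did.

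**Figure D1:**
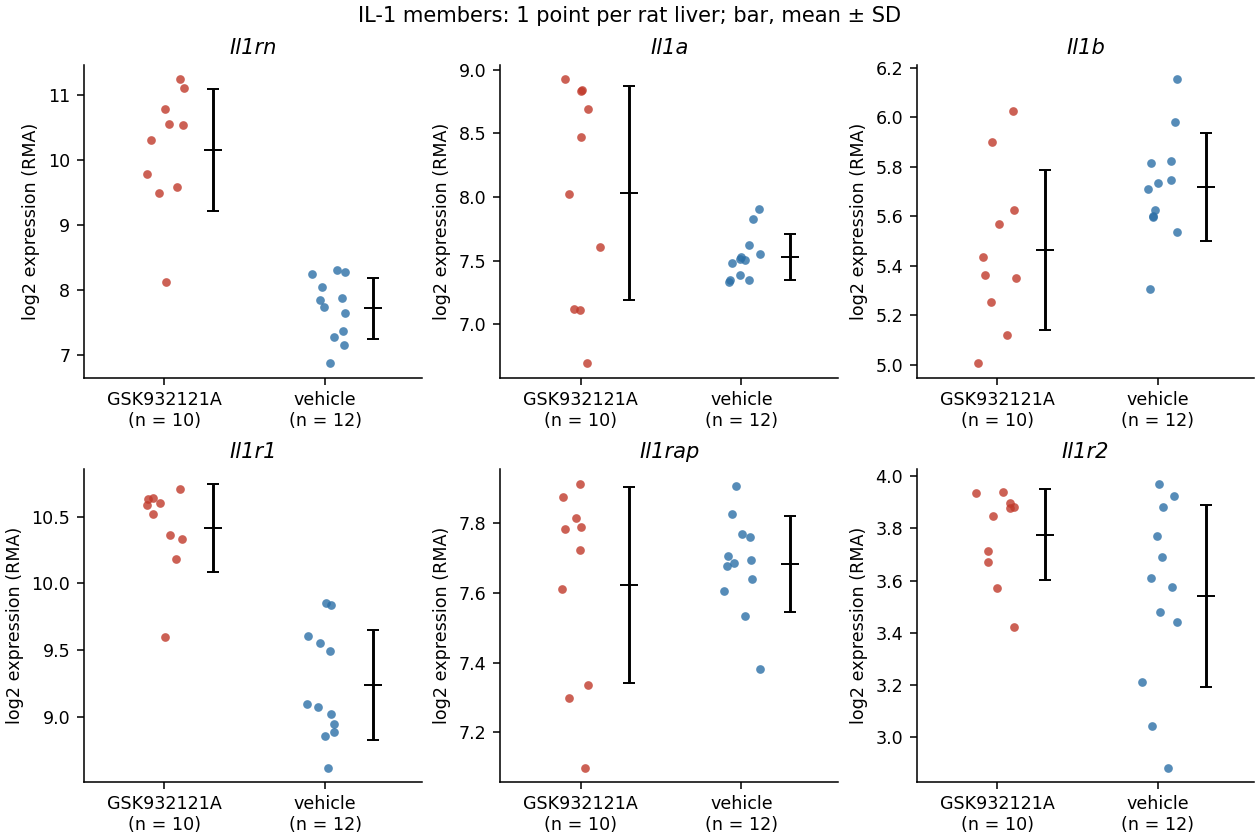
Log2 expression (RMA, vertical axes, a separate scale for each gene) of the 6 IL-1 genes in 10 GSK932121A and 12 vehicle livers; each point is 1 rat and the bars give mean ± SD. Il1rn and Il1r1 stand above the vehicle livers in 9 of 10 treated rats, Il1a is spread from below to above the vehicle range, and the groups overlap for Il1b, Il1rap and Il1r2.

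The windows of 250 bases upstream of the annotated starts of both genes that rose are shown here, with that of Il1b, a ligand gene that did not rise, beside them. They are RefSeq sequence of build GRCr8, written 5′ to 3′ on the gene's strand. Capitals mark matches to any of 5 motifs on either strand. These were AP-1 (TGANTCA), kappaB, the glucocorticoid receptor half-site (AGAACA), STAT (TTCNNNGAA) and C/EBP (TTGCNNAA). The kappaB motif was a pattern of 10 bases that begins with GGG and ends with TT, any base and CC.
Il1rn, chr3:27520072-27520321, plus strand: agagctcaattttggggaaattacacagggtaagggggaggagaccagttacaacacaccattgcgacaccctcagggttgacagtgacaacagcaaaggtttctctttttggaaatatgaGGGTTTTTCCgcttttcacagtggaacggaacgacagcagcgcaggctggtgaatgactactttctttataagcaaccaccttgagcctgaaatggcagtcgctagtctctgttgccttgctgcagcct
Il1r1, chr9:50034133-50034382, plus strand: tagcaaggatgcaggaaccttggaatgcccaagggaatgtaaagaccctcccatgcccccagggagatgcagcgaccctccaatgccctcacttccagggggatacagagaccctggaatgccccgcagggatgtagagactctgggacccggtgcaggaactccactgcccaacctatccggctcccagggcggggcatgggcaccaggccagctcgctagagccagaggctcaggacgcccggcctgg
Il1b, chr3:137036582-137036831, minus strand: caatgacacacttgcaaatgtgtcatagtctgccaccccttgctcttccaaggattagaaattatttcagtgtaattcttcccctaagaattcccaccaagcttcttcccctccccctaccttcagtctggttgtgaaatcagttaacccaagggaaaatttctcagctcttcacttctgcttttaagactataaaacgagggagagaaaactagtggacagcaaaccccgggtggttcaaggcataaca

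Other annotated transcripts of Il1rn, Il1r1 and Il1a start further upstream, so the window of each of these genes belongs to 1 start among several. The Il1rn window held 1 kappaB match, GGGTTTTTCC, from 129 to 120 bases before the start, and no other match. Of 27457 windows of the same length, 4.28% held a kappaB match. The Il1r1 and Il1b windows held no match to any of the 5 motifs as defined here. On its other strand the Il1r1 window has a stretch of the same length as the kappaB motif that begins with GGG and ends with CC. Its TT lies directly before the final CC, without the base between them that the pattern requires, so it was not counted. Looser kappaB patterns were not searched, so a difference between Il1rn and Il1r1 in such sites was not tested. The Il1a window held 1 AP-1 match, TGACTCA, from 12 to 6 bases before its start, as 6.36% of windows did. The pair of overlapping windows of Il1rap shared 1 kappaB match, written here on the gene's strand as GGGAAGCCCC and matched on the other, which is the same site read from both starts. These letters are a description of the windows and say nothing about binding in these livers.

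The ligands moved in no common direction. Il1a, which is made as a precursor that can act without cleavage and is released by damaged cells, had a lowest, median and highest log2 value of 6.69, 8.25 and 8.93 in GSK932121A livers, against 7.33, 7.51 and 7.90 in vehicle livers. The 12 vehicle livers lay within 0.57 of each other, and the 10 treated livers spanned 2.24. Of the treated livers, 6 lay above the highest vehicle liver (replicates 13, 14, 16, 18, 22 and 23), 3 lay below the lowest (17, 21 and 24) and 1 lay inside the vehicle range (20). Among all genes, 0.281% had at least 3 treated livers on each side of the vehicle range.

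The mean of Il1a therefore describes few of the treated rats. It was 8.03 ± 0.84 in GSK932121A livers and 7.53 ± 0.18 in vehicle livers (SD; n = 10, then n = 12). The difference of 0.50 ± 0.22 (SE; 95% interval 0.05 to 0.96) did not pass (limma, p = 0.0324, adjusted p = 0.159). Without GSK932121A replicate 24 it was 0.65 and passed (adjusted p = 0.0273), and with surrogate variables it was -0.42 (adjusted p = 0.0799).

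Il1b, the ligand that caspase-1 cleaves in macrophages, had a lowest, median and highest log2 value of 5.01, 5.40 and 6.03 in GSK932121A livers, against 5.31, 5.72 and 6.15 in vehicle livers. The groups overlapped, with 7 of 10 treated livers inside the vehicle range and 3 below it, and means of 5.47 ± 0.32 in GSK932121A livers and 5.72 ± 0.22 in vehicle livers (SD). The difference was -0.25 ± 0.11 (SE; 95% interval -0.48 to -0.03) and did not pass (limma, p = 0.0284, adjusted p = 0.146). Without GSK932121A replicate 18 it was -0.32 and passed (adjusted p = 0.0457).

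The remaining receptor genes did not pass. Il1rap, the accessory protein that IL1R1 needs to signal, had a lowest, median and highest log2 value of 7.10, 7.75 and 7.91 in GSK932121A livers, against 7.38, 7.69 and 7.91 in vehicle livers. Of the treated livers 1 lay above the vehicle range and 3 below it. Its difference was -0.06 ± 0.09 (SE; 95% interval -0.24 to 0.13; limma, adjusted p = 0.76). Il1r2, the decoy, had a lowest, median and highest log2 value of 3.42, 3.86 and 3.94 in GSK932121A livers, against 2.88, 3.59 and 3.97 in vehicle livers. All 10 treated livers lay inside the vehicle range, and the difference was 0.24 ± 0.11 (SE; 95% interval 0.0016 to 0.47; limma, adjusted p = 0.204).

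Whether Il1rn changed by more than the other members was tested on the per-array difference between Il1rn and each of them. The shift of Il1rn exceeded that of Il1r1 by 1.26 on the log2 scale, or 2.39-fold (two-sided permutation test, p = 0.00018), and 7 of 10 treated livers lay above every vehicle liver for this difference. It exceeded the shift of Il1a by 1.93, of Il1r2 by 2.20, of Il1rap by 2.50 and of Il1b by 2.69. The log2 values of Il1r2 were at most 3.97 in any liver, and whether a shift is read in full at that level was not tested. Adjusted over the 5 pairs, the p-value was 0.00018 for Il1r1, 2.5e-05 for Il1r2 and 1.67e-05 for Il1a, Il1b and Il1rap, the last of these being the adjusted form of the smallest p that 100000 resamples can give, 1e-05. The rise of Il1rn was known from an earlier look at these data, so these tests size the gap and are not independent evidence that Il1rn leads.

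**Figure D2:**
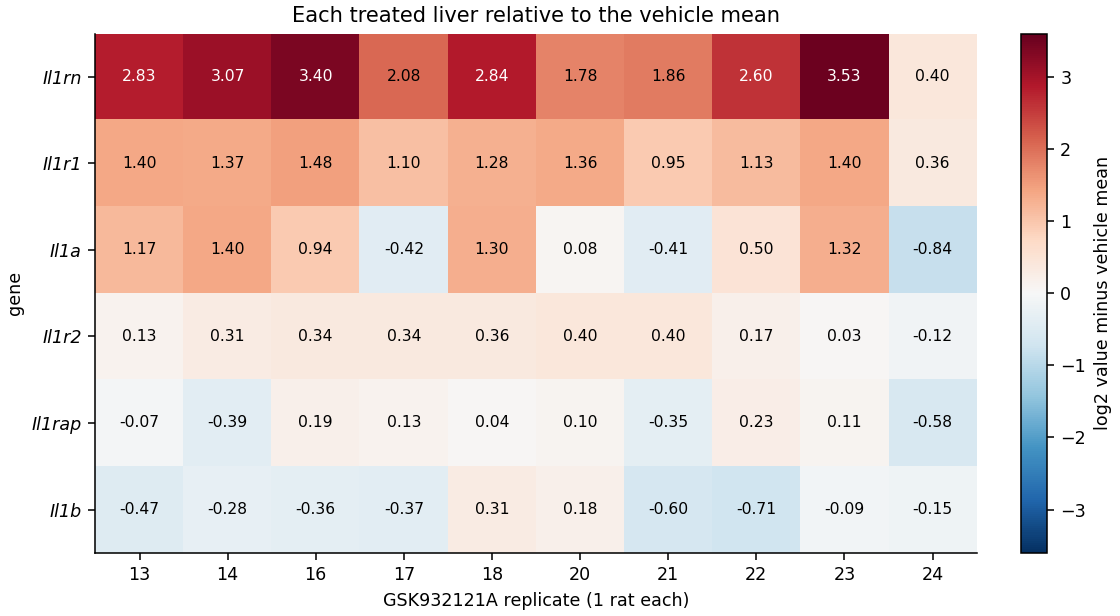
Log2 value of each IL-1 gene (rows) in each of the 10 GSK932121A livers (columns, 1 rat each) minus the mean of the 12 vehicle livers; red is higher and blue lower than vehicle, with the value in each cell. Il1rn is between 0.40 and 3.53 above the vehicle mean in every column, Il1r1 between 0.36 and 1.48, and Il1a runs from -0.84 to 1.40.

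The spread between animals was compared next. Among treated livers the SD of Il1a was 4.60 times that among vehicle livers (two-sided permutation test of the log2 SD ratio, p = 0.00017), and 29 of the 18166 genes, Il1a included, had a ratio at least as large. In limma on absolute deviations from the group median, added after the data were seen, Il1a was wider after GSK932121A with an adjusted p of 0.0443 over all genes. By that test 0.0771% of all genes were wider and none was narrower. The SD ratio was 1.98 for Il1rn (p = 0.0589), 2.05 for Il1rap (p = 0.022), 1.49 for Il1b (p = 0.209), 0.808 for Il1r1 (p = 0.488) and 0.501 for Il1r2 (p = 0.0369). Those of Il1rap and Il1r2 were past an unadjusted p of 0.05, but neither passed over all genes (adjusted p = 0.919 and 0.916) nor with the median absolute deviation (permutation p = 0.445 and 0.0911). Without GSK932121A replicate 24, the SD ratio of Il1rap was no longer past that level (p = 0.164), whereas Il1r1 was then less spread after GSK932121A than after vehicle (log2 SD ratio -1.22, p = 0.00143). Replicate 24 was the lowest treated liver for both genes, and leaving out an extreme value narrows its group by itself. That p for Il1r1 is therefore no evidence of a narrower spread.

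Within the treated group, Il1rn, Il1a and Il1r1 were correlated from rat to rat by Pearson's r, though not by rank after adjustment. Each of the 15 pairs of members was correlated within each group, 30 relations in all, with two-sided permutation tests and adjustment over the 30. Il1a with Il1rn gave Pearson's r = 0.89 (p = 0.00032, adjusted p = 0.0096) and Spearman's rho = 0.85 (p = 0.0029, adjusted p = 0.087) over the 10 treated livers. Il1rn with Il1r1 gave r = 0.88 (p = 0.00222, adjusted p = 0.0222) and rho = 0.82 (p = 0.00605, adjusted p = 0.0907). Il1a with Il1r1 gave r = 0.80 (p = 0.00165, adjusted p = 0.0222) and rho = 0.75 (p = 0.0173, adjusted p = 0.173). These 3 relations passed by Pearson's r, and none of the 30 passed by rank, so that the calls rest on the linear measure. How many pairs among all genes correlate as strongly in treated livers was not counted.

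Replicate 24 was the lowest treated liver for Il1rn, Il1a, Il1r1, Il1rap and Il1r2, and the relations were examined without it and the array next farthest from the median. Without replicates 20 and 24, Il1rn with Il1r1 gave r = 0.93 (permutation p = 0.00045, adjusted p = 0.0135). Without replicates 17 and 24, Il1a with Il1rn gave r = 0.86 (permutation p = 0.00733, adjusted p = 0.11) and Il1a with Il1r1 gave r = 0.72 (permutation p = 0.0408, adjusted p = 0.374). Of the 3 relations, that of Il1rn with Il1r1 was the one past the adjusted threshold over the remaining 8 livers.

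In vehicle livers the same pairs gave r = 0.09 for Il1a with Il1rn (p = 0.77), 0.25 for Il1rn with Il1r1 (p = 0.42) and 0.02 for Il1a with Il1r1 (p = 0.948). None of the 15 relations among vehicle livers passed. Whether a relation differed between the groups was not tested. Il1b varied apart from the antagonist among treated livers, with r = -0.05 to Il1rn (permutation p = 0.896) and 0.19 to Il1a (p = 0.593).

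**Figure D3:**
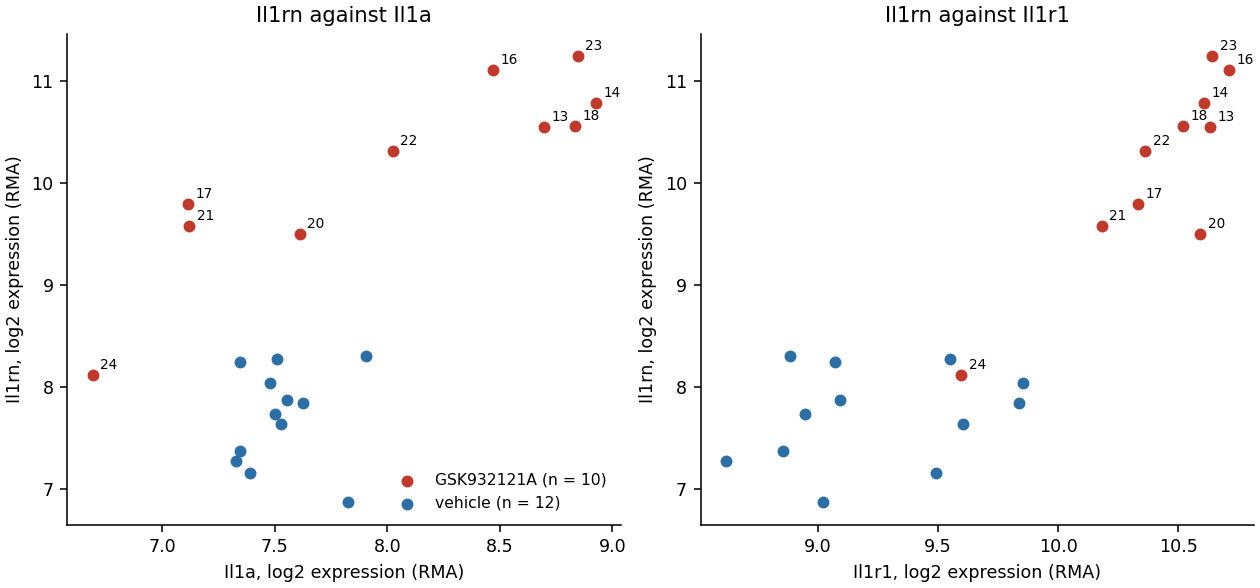
Il1rn (vertical axis) against Il1a (left) and Il1r1 (right) in each liver, all as log2 expression (RMA); red points are the 10 GSK932121A livers with their replicate numbers and blue points the 12 vehicle livers. The treated livers rise along both axes, with r = 0.89 for Il1a and 0.88 for Il1r1, and among them replicate 24 has the lowest value on every axis.

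The genes whose pattern was most like that of Il1rn were found from the deviations of each array from its group mean, over the 22 arrays, as a description with no test. They were Gadd45b, which is induced by DNA damage and cell stress (r = 0.88), Sik1, a salt-inducible kinase (r = 0.87), Crem, a cAMP-responsive transcription factor (r = 0.86), Insc, a spindle orientation adaptor (r = 0.85), and Chac1, which degrades glutathione (r = 0.84). Among treated livers alone their r to Il1rn ran from 0.91 to 0.94, above the 0.89 of Il1a and the 0.88 of Il1r1. Among vehicle livers it ran from 0.34 for Chac1 to 0.74 for Sik1. Each of the 5 also rose between the groups, from 2.03-fold for Crem to 12.7-fold for Chac1. For Il1r1 they were Btg1, an antiproliferative gene (r = 0.80), Stat3, the transcription factor of IL-6 signalling (r = 0.77), Net1 (r = 0.76), Abhd17b (r = 0.70) and Haus4 (r = 0.69). The first 4 of these rose 1.35-fold to 1.70-fold, and Haus4 did not pass (1.00-fold).

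Genes around the IL-1 receptor were then counted by role. Of 15 other ligands and receptors of the IL-1 family, 2 rose and none fell, with a median difference of 0.06. That is 13.3% called, against 12.4% of all genes called in either direction and 5.31% that rose. The share called is near the background, and a count of 2 is no result about this family. Il18, an IL-1 relative that induces interferon gamma, rose 1.42-fold, to 6.87 ± 0.38 in GSK932121A livers against 6.36 ± 0.35 in vehicle livers (SD; n = 10, then n = 12; limma, adjusted p = 0.0185). Il1rl2, the IL-36 receptor, rose 1.25-fold (adjusted p = 0.0441), but the removal of 1 array ended its call for 13 of the arrays (highest adjusted p 0.098, for GSK932121A replicate 13), as did the Welch and Wilcoxon tests (adjusted p = 0.0794 and 0.0585).

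Of 14 measured genes of IL-1 processing and the inflammasome, the complex that activates caspase-1, none rose and 2 fell, with a median difference of -0.12. That is 14.3% called, against 12.4% of all genes called and 7.05% that fell, so the count is close to the background. Casp8, which can also cleave the IL-1 beta precursor, fell by 0.40 on the log2 scale (limma, adjusted p = 0.0135). Pycard, the adaptor that links sensors to caspase-1, fell by 0.33 (adjusted p = 0.00982). Casp1 and the sensor Nlrp3, singled out for their role after their values were seen, differed by -0.07 ± 0.12 and -0.20 ± 0.11 (SE; adjusted p = 0.802 and 0.278).

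Of 26 measured genes of signal transduction from the receptor to NF-kB, 4 rose and 3 fell, with a median difference of 0.04. That is 26.9% called, against 12.4% of all genes (5.31% higher and 7.05% lower). Irak3, the IRAK family member that restrains receptor signalling, rose 1.45-fold, to 7.41 ± 0.35 in GSK932121A livers against 6.88 ± 0.23 in vehicle livers (SD; n = 10, then n = 12; limma, adjusted p = 0.00224). The NF-kB subunit genes Relb and Rel each rose 1.35-fold (adjusted p = 0.00273 and 0.0011). Ikbkg, the regulatory subunit of the IkappaB kinase, fell by 0.35 on the log2 scale (adjusted p = 0.00477), and was the largest fall of the list. The remaining calls were a rise of Rela and falls of Peli2 and Tab1. The removal of 1 array ended the call of Rela for 17 of the arrays (highest adjusted p 0.103, for GSK932121A replicate 14) and that of Tab1 for 1, GSK932121A replicate 13 (adjusted p = 0.0553).

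Of 22 measured NF-kB feedback and chemokine genes, 6 rose and none fell, with a median difference of 0.16. That is 27.3% called, against 5.31% of all genes that rose and 12.4% called in either direction. Bcl3, a nuclear IkappaB protein, rose 2.89-fold, to 7.96 ± 0.51 in GSK932121A livers against 6.43 ± 0.36 in vehicle livers (SD; n = 10, then n = 12; limma, adjusted p = 7.06e-07). Nfkbiz, an atypical IkappaB protein, rose 2.41-fold (adjusted p = 0.00287), and Nfkbia, the inhibitor IkappaB-alpha, 1.77-fold (adjusted p = 1.25e-05). The neutrophil chemokine gene Cxcl1 rose by 1.26 on the log2 scale (adjusted p = 0.0192). Nfkbia and Bcl3 lay above every vehicle liver in 9 of 10 treated livers, Nfkbiz in 7 and Cxcl1 in 4. The call of Cxcl1 was lost in the Welch test (adjusted p = 0.082). Zc3h12a and Cxcl2 made up the 6, and the removal of 1 array ended the call of Cxcl2 for 14 of the arrays (highest adjusted p 0.0805, for GSK932121A replicate 18). The Welch test also ended the call of Cxcl2 (adjusted p = 0.154). The 16 other genes, Tnf, Il6, Icam1 and Vcam1 among them, did not pass, with log2 differences from -0.12 (Nfkbie) to 0.69 (Ccl2).

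Hepatic genes of the acute phase were counted in both of their types. Of 13 measured genes listed as the type that IL-1 and IL-6 induce together, 3 rose and none fell, with a median difference of 0.08: Nnmt, nicotinamide N-methyltransferase (3.00-fold), Il6r, the IL-6 receptor (1.90-fold), and Lbp, which binds lipopolysaccharide (1.55-fold; limma, adjusted p = 1.01e-06, 2.42e-06 and 0.00775). Those that rose were 23.1% of the list, against 5.31% of all genes that rose and 12.4% called in either direction. Nnmt and Il6r encode no secreted acute-phase protein. The call of Lbp was lost with surrogate variables (limma, adjusted p = 0.184). The 10 other genes did not pass, among them the plasma protein genes Crp, Orm1, Hp, Cp, C3, Cfb and Hpx. Of 10 measured genes listed as the type that IL-6 induces alone, 2 rose and none fell. That is 20%, against 5.31% of all genes that rose and 12.4% called in either direction. The 2 were Socs3, which blocks cytokine receptor signalling (3.11-fold, limma, adjusted p = 1.69e-05), and the protease inhibitor gene Serpina3n (1.16-fold, adjusted p = 0.0367). The removal of 1 array ended the call of Serpina3n for 9 of the arrays (highest adjusted p 0.0749, for GSK932121A replicate 16).

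Glucocorticoids are known to induce Il1r2 in leukocytes and to restrain IL-1 production, so 15 measured glucocorticoid-responsive genes were set beside the members. Of these, 14 rose and 1, Angptl4, fell, with a median difference of 1.24, so that all 15 were called, against 12.4% of all genes. The largest rises were those of Gadd45g (6.58-fold), Mt2A (3.73-fold), Igfbp1 (3.57-fold) and Zbtb16 (3.33-fold). This list was already known to move in these samples and is no independent evidence. Il1r2, at 1.18-fold, did not pass. Its log2 values were at most 3.97 in any liver, and how far a rise can be seen at that level was not tested.

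With 5 surrogate variables, which held 45.5% of the variance of group, Il1rn and Il1r1 kept their calls (adjusted p = 0.00229 and 0.0104), as did Irak3, Nfkbia, Bcl3, Zc3h12a, Nnmt, Il6r and Socs3. The calls of Il18, Il1rl2, Casp8, Pycard, Relb, Rel, Rela, Ikbkg, Peli2, Tab1, Nfkbiz, Cxcl1, Cxcl2, Lbp and Serpina3n were lost, with adjusted p between 0.0885 and 0.916. Of the glucocorticoid-responsive genes 12 of 15 kept their calls, and Tsc22d3 (adjusted p = 0.143), Sgk1 (0.138) and Pck1 (0.069) lost theirs.

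**Figure D4:**
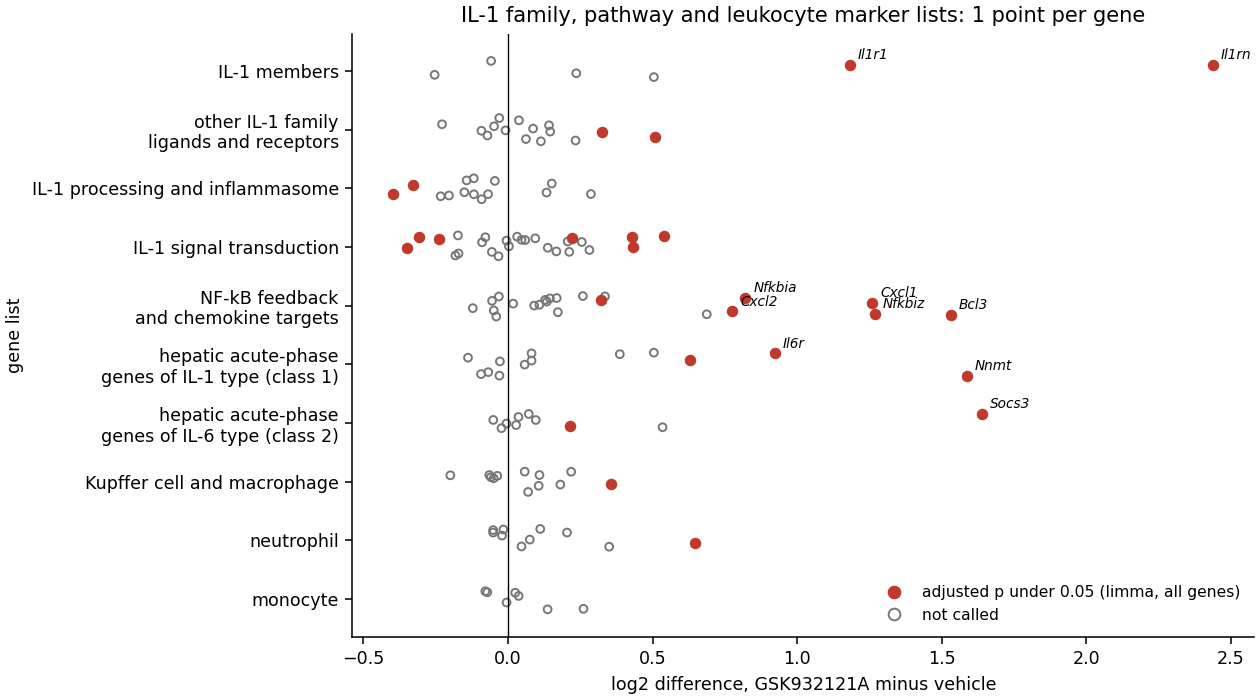
Log2 difference between GSK932121A and vehicle (horizontal axis) for each measured gene of the IL-1 members, 6 related lists and 3 leukocyte marker lists (rows); filled points passed limma at an adjusted p under 0.05 over all genes and open points did not. Il1rn and Il1r1 stand apart from the other members, and most points of the other lists lie close to 0.

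Markers of the cells that make or carry IL-1 components were counted beside these results. Since the arrays read whole tissue, fewer cells of a type and less RNA per cell cannot be told apart. Of 12 Kupffer cell and macrophage markers, 1 rose: Cd163, a haptoglobin-haemoglobin scavenger receptor (1.28-fold; limma, adjusted p = 0.00461), a call that was lost with surrogate variables (adjusted p = 0.2). That is 8.33% of the list, against 12.4% of all genes called in either direction and 5.31% that rose. The mean log2 value over this list ran from 7.51 to 8.00 in GSK932121A livers and from 7.41 to 8.05 in vehicle livers, so the groups overlapped. Of 10 measured neutrophil markers, 1 rose: Trem1, a myeloid activating receptor (1.57-fold, adjusted p = 0.000774), also lost with surrogate variables (adjusted p = 0.215), which is 10% of the list. The mean log2 value over the neutrophil list ran from 4.04 to 4.50 in GSK932121A livers and from 3.95 to 4.25 in vehicle livers. The list mean of the 7 monocyte markers ran from 5.83 to 6.27 in GSK932121A livers and from 5.79 to 6.22 in vehicle livers.

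Of 32 markers of monocytes, lymphocytes, stellate cells and cholangiocytes, 0 passed limma, against 12.4% of all genes. At an unadjusted p under 0.05 there were 7 of the 32, against 24% of all genes. In the Welch and Wilcoxon tests 0 passed. Of 4 measured sinusoidal endothelial markers, 1 rose: Lyve1 (1.16-fold, limma, adjusted p = 0.0201, and 0.0922 with surrogate variables, where the call was lost). Of 4 measured hepatocyte markers, 1 rose: Cps1 (1.25-fold, adjusted p = 0.000789, and 0.0466 with surrogate variables), while Alb, Ttr and Serpina1 did not pass. Each is 25% of its list, against 12.4% of all genes called and 5.31% that rose. A count of 1 in 4 is no result about these cells. The part of these cell types in the changes of Il1rn and Il1r1 was not tested.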

How the data were processed

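The deposited values are log2 expression values that the authors made with RMA, per the submitters' processing notes. RMA removes background, equalises the arrays and reduces the probes of a set to 1 value, so a shift common to all genes cannot be seen. Which software ran it, in which version, is not given in the sources used here. Groups and replicate numbers came from the labels, and the groups share no numbers.

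Of 36685 probe sets, 18511 had 1 symbol in the platform annotation. Where a gene had several, the one with the highest mean stood for it, leaving 18166 genes. Groups were compared with limma 3.58.1 (R 4.3.3), with group alone in the model and Benjamini-Hochberg adjustment over all genes. Permutation tests drew 100000 resamples. Python 3.11.15, numpy 2.4.6, pandas 2.3.3, scipy 1.17.1 and matplotlib 3.10.9 were used.

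The members, the gene lists, the naming rule and the tests were chosen with earlier results of these data known. All members are named, then the 5 genes most like each member that passed. Of each list, up to 4 called genes and the largest opposite call are named. Further called genes were named after their values were seen, to complete short counts, as were some that did not pass. Of the genes most like Il1a, 1 is not reported here. P-values for the spread are unadjusted, since adjustment over the members alone would use a chosen list. Alternatives were median centring, quantile and cyclic loess normalisation, a mean log2 value of 5 or more, the mean of probe sets, trend with robust settings, array weights, Welch and Wilcoxon tests, limma's wsva, each array left out, group medians, the median absolute deviation and limma on absolute deviations.

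On simulated data of 18166 genes, limma recovered 28.4%, 95.5% and 100% of genes changed 1.2-fold, 1.5-fold and 2-fold. Limma on absolute deviations recovered 13% of genes whose SD was 5 times as large, so its calls are few. The number of arrays limits the precision.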

Additional observations from a re-analysis of the deposited data

Results flagged for a closer look

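Among the 10 GSK932121A livers, the Il1r1 value of replicate 24, 9.60 on the log2 scale, lay far below the others. Its gap to the next liver was 0.52 of the range of the group, past Dixon's 95% critical value of 0.466. Chance alone flags about 1 in 20 groups, and 6 groups of treated livers were examined. The same rat was also lowest for Il1rn, where the gap was 0.44 of the range and not past that value. Without it the difference of Il1r1 was 1.27 and that of Il1rn 2.67.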

How the results depend on the processing

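The calls of Il1rn and Il1r1 held under each alternative run, with each array left out included: over left-out arrays the log2 difference ran from 2.32 to 2.67 for Il1rn and from 1.13 to 1.27 for Il1r1. Over those fits 2 to 3 members passed, the added ones being Il1a without GSK932121A replicate 24 and Il1b without GSK932121A replicate 18. The sign of Il1a turned with surrogate variables (-0.42, not called either way), and the cause was not tested. Surrogate variables reduced the genes called in the 7 other pathway lists to 19, against 37, and those over all genes to 603, against 2244. By list the counts were then 0 against 2 for other family genes, 0 against 2 for processing, 1 against 7 for signal transduction, 3 against 6 for NF-kB genes 1 against 2 for the IL-6 type and 12 against 15 for glucocorticoid-responsive genes; with arrays left out the 7 lists gave 32 to 39. The family list had 1 call, against 2, in the Welch and Wilcoxon tests and with array weights, and the IL-6 type and family lists had 1 or 2 with arrays left out. With the filter on dim genes the family list also had 1 call, because the filter removed Il1rl2 from the test. That filter removed Il1r2 as well. Cyclic loess gave 1084 rises and 1040 falls over all genes, against 964 and 1280. Members whose spread was past an unadjusted permutation p of 0.05 numbered 3, and 1 (Il1a) with the median absolute deviation, 1 with limma on absolute deviations and 1 to 4 with arrays left out. Over left-out arrays the permutation p of the SD ratio ran from 0.0112 to 0.113 for Il1r2 (over 0.05 without GSK932121A replicate 13, 14, 17 or 22 or vehicle replicate 1, 5, 7, 10 or 11), from 0.00308 to 0.164 for Il1rap (over it without GSK932121A replicate 14, 21 or 24) and from 0.0204 to 0.175 for Il1rn (under it without GSK932121A replicate 13, 17, 18 or 22 or vehicle replicate 10). Il1r2 was also over it with median centring (0.0553) and cyclic loess (0.0522), and Il1rn under it with cyclic loess (0.0423). Correlations that passed numbered 3, and 1 without the 2 farthest arrays, which leaves fewer livers. All 5 shifts of Il1rn against another member passed in each fit. No paired analysis was possible because the groups share no replicate numbers. The values hold no measure of background, so which genes lie near it was not tested.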

Other observations

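The pattern of Il1a was not part of the naming rule, since Il1a did not pass, and genes like it were looked up after its values were seen. Over the deviations of the 22 arrays from their group means, 4 of the 5 genes most like it were Rgs1, a regulator of G-protein signalling (r = 0.91), Cited2, a CBP/p300-interacting transactivator (r = 0.89), Bach1, a haem-regulated repressor (r = 0.89), and Adcy10, the soluble adenylyl cyclase (r = 0.88), given as a description with no test. Unlike Il1a, each of these 4 passed between the groups, with rises of 2.64-fold, 1.67-fold, 2.26-fold and 2.41-fold (limma, adjusted p between 1.02e-05 and 0.0223). Among treated livers alone r ran from 0.90 to 0.94, and among vehicle livers it was 0.14 for Rgs1, 0.08 for Cited2, 0.66 for Bach1 and 0.73 for Adcy10.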
